A study of Mus musculus with 16 samples.

Results

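Body weight was treated as a continuous predictor of skeletal muscle gene expression in HFD-fed male mice, using all 16 count libraries of the series and the weight recorded in the labels of each animal. The mice came from the B6.129-Npr1tm1Gar/J line, backcrossed to C57BL/6J, in which 1 copy of Npr1 is disrupted in every tissue, and their littermates. All 16 received the high-fat diet. The study's methods describe male mice 12 weeks old and up to 12 weeks on the diet, without a duration for these animals. Of the 16, 10 are labelled heterozygous (Npr1+/-) and 6 wildtype (Npr1+/+). A mouse on standard chow is not among these libraries, so the weights describe differences between obese animals and not obesity against leanness. Each library is the muscle RNA of 1 mouse, and the muscle taken is not named in the labels. The question was whether any gene moved with weight once the genotype label and the cage were held fixed, and whether the same was seen in the 10 heterozygous mice alone.

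Skeletal muscle takes up most of the glucose cleared after a meal, through insulin receptor and IRS signalling to the glucose transporter GLUT4, and burns fatty acids in its mitochondria. In obesity, fat accumulates in and between the fibers, and macrophages and matrix collect around the adipocytes there. Bulk muscle RNA therefore mixes fibers with adipocytes, macrophages, vessels, fibroblasts, blood and tendon, and in such libraries fewer cells of a type and less RNA per cell cannot be told apart.

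Body weight ran from 36.5 to 54 g, with a median of 45.15 g. The unit is not written beside the weights in the labels and was read as grams. The mean was 43.6 ± 3.79 g (SD, n = 10) in the mice labelled heterozygous and 47.4 ± 4.69 g (SD, n = 6) in those labelled wildtype. Cages 675, 676, 677 and 678 held 4, 4, 3 and 5 mice, with mean weights of 47.5, 47.2, 43.8 and 41.8 g. Between-cage differences made up 34.1% of the variance of weight, which did not pass an exact permutation test over the 50450400 assignments of mice to cages of these sizes (p = 0.160). Genotype label and cage together took up 50.5% of the variance of weight, and the SD of weight left within them was 3.11 g. The slopes below rest on that remainder. The 4 lightest mice (36.5 to 40.5 g) were 3 heterozygous and 1 wildtype, and the 4 heaviest (48.1 to 54 g) were 1 heterozygous and 3 wildtype, so the raw values given for these mice carry the genotype label as well as weight, which the fitted slopes do not.

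**Figure D1:**
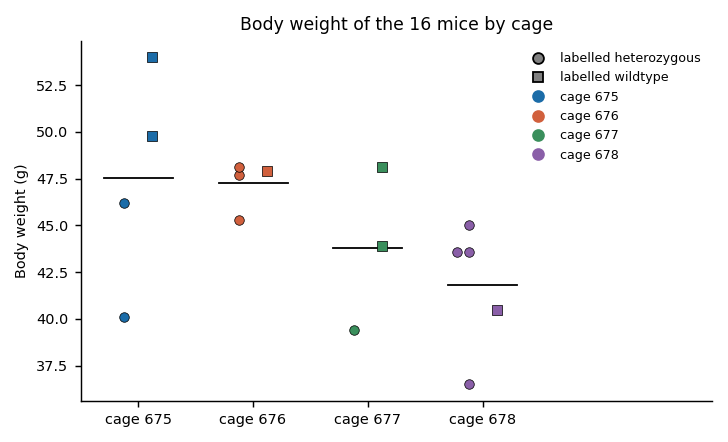
Body weight in grams (vertical axis) of each of the 16 mice, by cage; circles are mice labelled heterozygous, squares mice labelled wildtype, and lines the cage means. Cage 675 holds the widest spread, from 40.1 to 54 g, and cage 676 the narrowest, from 45.3 to 48.1 g.

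Libraries held 15273472 to 59682677 counted fragments (median 20728153). The log2 of this total did not pass a test against body weight in the 16 mice (Pearson r = -0.16, permutation p = 0.541, adjusted p = 0.62 over 5 library measures; Spearman rho = 0.06, permutation p = 0.818; r = -0.29 without the mice of 36.5 and 54 g). In the 10 heterozygous mice the correlation was stronger and also did not pass (r = -0.55, permutation p = 0.0930, adjusted p = 0.155; rho = -0.54, permutation p = 0.108; r = -0.43 without the 2 farthest mice). The 37 genes of the mitochondrial chromosome had 0 counts in all, so subunits encoded there were not analysed. Npr1, the targeted gene, ranged from 9.83 to 22.2 CPM (counts scaled to the TMM-adjusted library total) in the libraries labelled heterozygous and from 10.4 to 13.4 CPM in those labelled wildtype. These overlap, counts over the whole gene need not show the disrupted allele, and genotype is given as labelled. The paper reports less Npr1 mRNA, and less of the protein it encodes, in skeletal muscle of Npr1+/- mice. These counts do not show that difference, and the reason was not tested. The slope of Npr1 on body weight was -0.27 log2 per 10 g (SE 0.27, adjusted p = 0.590 from edgeR with Benjamini-Hochberg adjustment).

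With genotype label and cage as covariates, 0 of 14331 genes (0% in either direction) had a slope on body weight at an adjusted p-value under 0.05 by edgeR's quasi-likelihood test, and the smallest adjusted p-value was 0.245. At an unadjusted p-value under 0.05 there were 2449 genes, of which 680 (4.74% of the genes tested) had a positive slope and 1769 (12.3%) a negative slope. Evenly spread p-values would give 717. Counts of higher or lower genes in the groups below refer to this unadjusted threshold and the sign of the slope, and none of those genes passed after adjustment. limma-voom called 0 genes with the same covariates. DESeq2 called 26, of which Col5a2 was the 1 higher gene and the 25 lower genes included Nos1, Hk2, Gys1, Acacb, Nr1d1, Ogdh, Scn4a, Myom2, Actn2 and Lpin1. The excess of negative slopes depended on scaling and on the mice and covariates used. Without cage 678 the unadjusted threshold gave 197 higher and 69 lower genes, and with the replicate number in place of cage 156 and 56. Replicate numbers do not pair these mice, and numbers 7, 8, 9 and 10 occur only under the heterozygous label. Each of those mice is then fitted by its own term and adds nothing to the slope. With library size alone in place of TMM factors, 1501 genes were higher and 956 lower at an unadjusted p-value under 0.05, and with the trend of counts on gene length removed in each library, 959 (6.69%) were higher and 1477 (10.3%) lower.

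Leaving out a single mouse changed this count more than any change of covariate that was tried. Without heterozygous replicate 3 (40.1 g, cage 675), 1201 genes were called higher (8.38% of those tested) and 1954 lower (13.6%), and each of these 3155 genes had a slope of the same sign in the 16 mice, 1915 of them with an unadjusted p-value under 0.05. Without the whole of cage 675, 743 genes were called higher and 1516 lower, and 2136 of these were shared with the former set. Leaving out any other single mouse gave 0 calls. The labels hold 1 weight for each mouse, and whether that of replicate 3, or the identity of its library, is right was not tested. Heterozygous replicate 3 had the highest leverage on the fit (0.535 on a scale where 1 means that a mouse fits itself), together with wildtype replicate 4 (0.535). Its cage mate heterozygous replicate 6 (46.2 g) was heavier, yet stood above it for many genes with negative slopes. Myh4 was 52500 CPM in replicate 6 and 21000 CPM in replicate 3, against 12800 and 9810 CPM in the wildtype mice of 49.8 and 54 g in the same cage. Without the lightest mouse, heterozygous replicate 7 (36.5 g), 0 genes were called and the genes at an unadjusted p-value under 0.05 came to 281 higher and 715 lower.

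**Figure D2:**
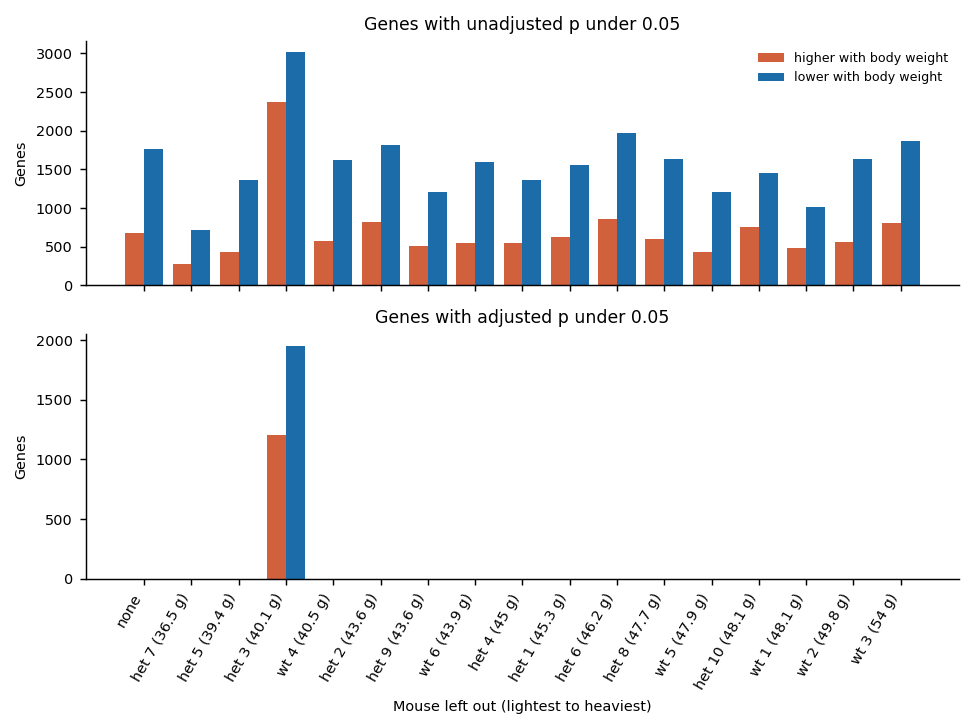
Number of genes with a slope on body weight (vertical axes) at an unadjusted p-value under 0.05 (top) and at an adjusted p-value under 0.05 (bottom) when each mouse, named on the horizontal axis from lightest to heaviest, is left out. Only the bars without heterozygous replicate 3 rise above 0 in the lower panel, to 1201 higher and 1954 lower genes.

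Slopes ran with gene length. The median slope was 0.25 log2 per 10 g over the 2867 genes in the shortest quintile of gene length, up to 2137 bases of exon, and -0.33 over the 2866 genes in the longest quintile, from 7359 bases up. In the longest quintile, 713 genes had a negative and 50 a positive slope at an unadjusted p-value under 0.05. The libraries themselves differed in this trend. A library's deviation from the mean of all libraries changed by 0.32 log2 per doubling of length in heterozygous replicate 7 (36.5 g), 0.24 in replicate 6 (46.2 g) and 0.18 in replicate 5 (39.4 g), and by -0.19 in replicate 9 (43.6 g) and -0.18 in replicate 10 (48.1 g). Principal component 1, which held 43.7% of the variance of all genes, was also highest in replicates 7, 6 and 5. Across the 16 mice the length trend did not pass a test against body weight (Pearson r = -0.42, permutation p = 0.110, adjusted p = 0.276 over 5 library measures; Spearman rho = -0.35, permutation p = 0.185; r = -0.32 without the 2 farthest mice). In the 10 heterozygous mice alone it was stronger (Pearson r = -0.65, permutation p = 0.0409, adjusted p = 0.121 over the same 5 measures; Spearman rho = -0.55, permutation p = 0.106), and it rested on the 2 mice farthest from their median weight, without which r was -0.22. Within cages, its change per 10 g was -0.43 in cage 678, -0.34 in 677, -0.05 in 675 and 0.06 in 676. In the 6 wildtype mice alone, the median slope had the other order, -0.10 in the shortest and 0.17 in the longest quintile. With the length trend removed the quintiles had medians between 0.01 and 0.03, and 0 genes were called. Without heterozygous replicate 3, this same correction left 1518 genes called higher and 1427 lower. Medians with the length trend removed are given below beside those of all 16 mice, but not beside those of the heterozygous or wildtype mice alone, and the part of RNA quality or library preparation in the trend was not tested.

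**Figure D3:**
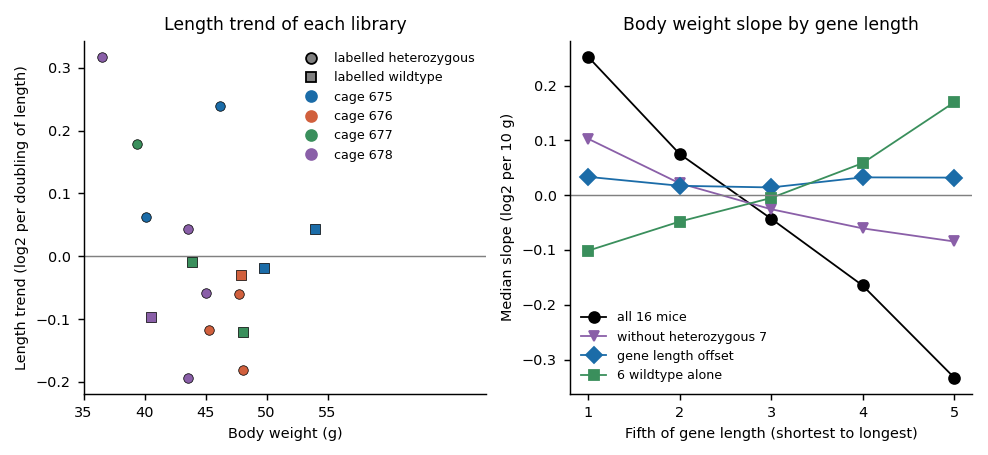
Left, the trend of each library's deviations on gene length (log2 per doubling, vertical axis) against body weight in grams; right, the median slope on body weight (log2 per 10 g) in quintiles of gene length, from the shortest to the longest. The slope falls from 0.25 to -0.33 in all 16 mice, runs from 0.10 to -0.08 without heterozygous replicate 7, and is flat once the trend is removed.

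The negative slopes with the smallest p-values included enzymes and channels of the fiber. These genes, and the positive slopes below, were chosen for their p-values in the same 16 mice, so their values describe them and are no further test. Nos1 encodes the neuronal nitric oxide synthase that sits under the muscle membrane and lies on chromosome 5 of GRCm38 from 117781032 to 117958840. It was 49.7 to 253 CPM in the 4 lightest mice and 17.6 to 39.7 CPM in the 4 heaviest, with no overlap and a slope of -2.37 log2 per 10 g (SE 0.60, adjusted p = 0.245 by edgeR). The high values were those of heterozygous replicates 7 (253), 5 (174), 6 (154) and 3 (96.7), of which replicate 6 weighed 46.2 g. Hk2, hexokinase 2, which phosphorylates glucose on entry into the fiber, lies on chromosome 6 from 82725025 to 82774454. It was 85.7 to 380 CPM in the lightest and 44 to 68.9 CPM in the heaviest mice, again without overlap, and its slope was -1.70 (SE 0.43). Within each of the 4 cages the heavier mice had the lower Hk2 and Nos1 on average. 4931413K12Rik, on chromosome 11 from 75589665 to 75594771, had the smallest p-value of all genes, with 0.937 to 1.95 CPM in the lightest and 0.0653 to 0.855 CPM in the heaviest mice and a slope of -2.50 (SE 0.52).

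The rest of the 12 negative slopes with the smallest p-values were Idua, a lysosomal enzyme of glycosaminoglycan breakdown (-1.14), Adcy1, an adenylyl cyclase (-2.02), Kcnc1, a voltage-gated potassium channel (-1.38), Auts2 (-2.06), the splicing helicase Dhx38 (-1.66), Wipf3 (-1.75), Colq, the collagen tail that anchors acetylcholinesterase at the neuromuscular junction (-1.04), the preadipocyte factor Zfp423 (-1.35) and Ahdc1 (-1.77). These 12 genes had a median of 6541.5 bases of exon and the 12 with positive slopes one of 2268 bases, and each of the 24 kept an unadjusted p-value under 0.05 with the length trend removed.

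The 12 positive slopes with the smallest p-values were chosen in the same way. Rab15, a small GTPase of endosome recycling on chromosome 12 from 76797960 to 76822908, was 5.05 to 6.82 CPM in the 4 lightest and 10.3 to 20.2 CPM in the 4 heaviest mice, without overlap, with a slope of 1.08 (SE 0.26, adjusted p = 0.245 by edgeR). Ubd, the ubiquitin-like modifier FAT10, which inflammatory cytokines induce, was 0 to 0.139 CPM in the 4 lightest and 1.11 to 4.72 CPM in the 4 heaviest mice, with a slope of 4.18 (SE 1.01). It lies on chromosome 17 from 37193892 to 37196095 and was at 0 counts in 1 library. The 4 lightest mice held 2, 5, 0 and 2 of its counts, so its slope is no firm measure of size. Tph2, a tryptophan hydroxylase of serotonin synthesis, was 0.164 to 0.557 against 0.805 to 7.81 CPM, and its highest value, like that of Ubd, was in heterozygous replicate 10 (48.1 g). G0s2, which inhibits the lipase ATGL and so slows the release of stored fat, was 8.87 to 41.3 CPM in the lightest and 36.3 to 49.8 CPM in the heaviest mice. These overlapped through the wildtype mouse of 40.5 g, and the slope was 1.35 (SE 0.36).

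Kera, a keratan sulfate proteoglycan of tendon and cornea (1.35), Fcrls, a receptor of macrophages and microglia (1.41), Nipsnap3b (0.95), Cuzd1 (0.93), the cell cycle factor E2f5 (1.10), Plekhh2 (1.04) and the unnamed loci Gm42690 (2.20) and A730020M07Rik (1.85) made up the rest. Of these 24 genes in both directions, 19 had no overlap between the 4 lightest and the 4 heaviest mice. Over all genes tested, 2.67% lay higher in all 4 heaviest than in all 4 lightest mice and 7.40% lay lower. The slope had the same sign within each of the 4 cages for 20 of the 24, a count that the choice of genes on these mice favours.

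**Figure D4:**
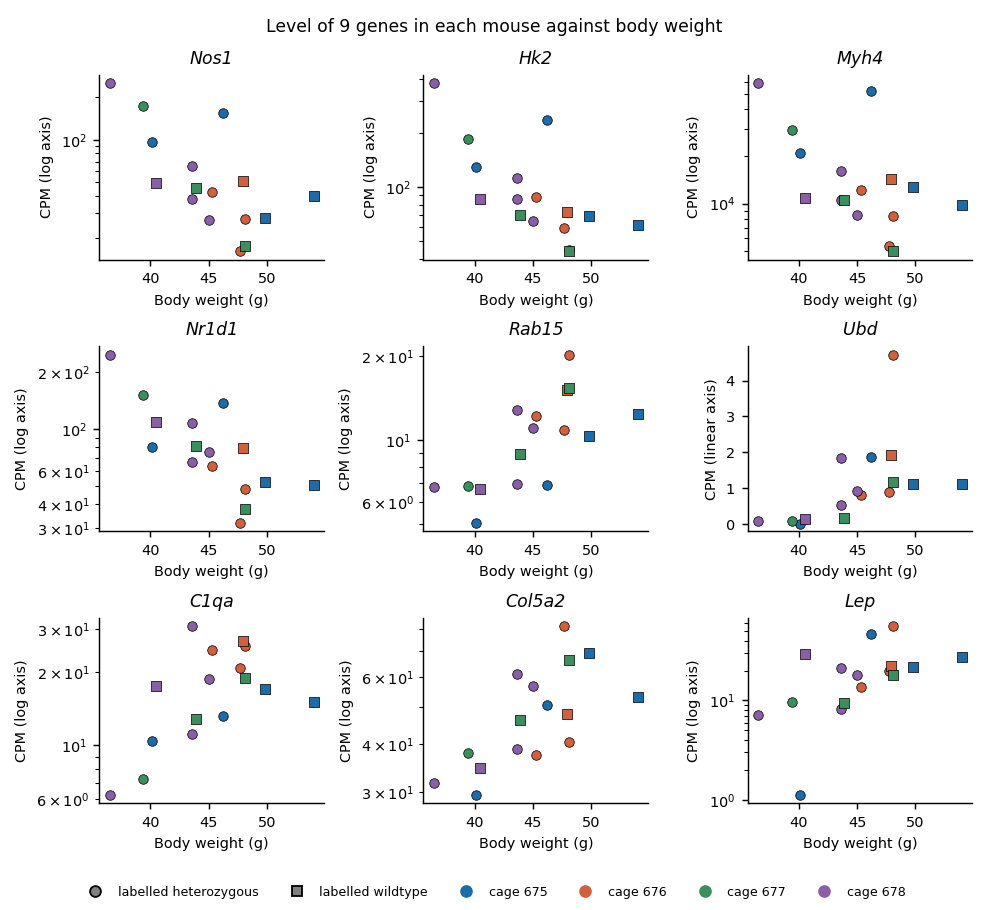
CPM (vertical axis, log scale except for Ubd) of 9 genes in each mouse against body weight in grams; circles are mice labelled heterozygous, squares wildtype, and colours the cages. Nos1, Hk2, Myh4 and Nr1d1 are highest in the mouse of 36.5 g, and the mouse of 46.2 g in cage 675 stands above its neighbours in weight; Rab15, Ubd and Col5a2 are higher among the heavier mice.

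Genes of glucose use had mostly negative slopes. Of 18 tested genes of glycolysis and glycogen metabolism, 0 had a positive and 6 a negative slope at an unadjusted p-value under 0.05, where 4.74% of all genes had a positive and 12.3% a negative one. In sign alone, 13 of the 18 slopes were negative, beside 7546 of 14331 over all genes. The median was -0.27 (-0.28 with the length trend removed), beside -0.03 over all genes, and was -0.16 and -0.18 without wildtype replicates 3 and 4. The 6 were Hk2, glycogen synthase Gys1 (-1.22, SE 0.33), glycogen phosphorylase Pygm (-0.78), Gpi1 (-0.81), Hk1 (-1.27) and phosphofructokinase Pfkm (-0.67). Gys1 was 491 to 803 CPM in the 4 lightest and 218 to 329 CPM in the 4 heaviest mice, without overlap. Tpi1 (0.45, p = 0.156) and Gapdh (0.30, p = 0.259), later enzymes of the path, had positive slopes that did not pass the unadjusted threshold in edgeR. Slc2a4, which encodes GLUT4, was 645 to 878 CPM in the lightest and 514 to 955 CPM in the heaviest mice, with a slope of -0.04 (SE 0.22) whose sign changed with the scaling.

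In the list for insulin signalling and GLUT4 traffic, 15 of 16 slopes were negative, beside 7546 of 14331 over all genes, 5 with an unadjusted p-value under 0.05 (Irs2, Gsk3b, Insr, Akt1 and Tbc1d1, where 12.3% of all genes were lower), and 1 was positive. The median was -0.33, and it was -0.04 once the length trend was removed, with 3 lower genes and 1 higher. Without heterozygous replicate 7 it was -0.11, without replicate 9 -0.21, without wildtype replicate 3 -0.54, without cage 678 -0.07 and with the replicate number in place of cage -0.02. Irs2, an adaptor between the insulin receptor and PI3 kinase, was 6.12 to 28.2 CPM in the 4 lightest mice and 3.63 to 7.62 CPM in the 4 heaviest, with a slope of -1.55 (SE 0.49). Its highest value was 37.8 CPM in heterozygous replicate 6 (46.2 g). The insulin receptor gene Insr had a slope of -0.90 (SE 0.42) and the kinase gene Gsk3b one of -1.19 (SE 0.44). Grb14, an adaptor that binds and inhibits the insulin receptor, was the gene with a positive slope, 0.40 (SE 0.19). In the 6 wildtype mice alone 10 of the 16 slopes were positive. Their median was 0.20, beside 0.01 over all genes and 0.17 over the longest quintile of gene length.

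Of 13 genes of lipid synthesis, 0 had a positive and 4 a negative slope at an unadjusted p-value under 0.05, where 12.3% of all genes had a negative one. The median was -0.44 (-0.30 without the length trend, with 1 lower gene). It was -0.77 without heterozygous replicate 3, -0.27 and -0.28 without replicates 7 and 9, and -0.29 without wildtype replicate 1. Its sign turned, to 0.17 without cage 678 and to 0.08 with the replicate number in place of cage. Acacb, the acetyl-CoA carboxylase whose product malonyl-CoA holds back fatty acid entry into mitochondria, was 124 to 512 CPM in the 4 lightest and 59.1 to 104 CPM in the 4 heaviest mice, with a slope of -1.69 (SE 0.49). Acaca had a slope of -1.33, fatty acid synthase Fasn one of -1.55 and the desaturase Scd2 one of -0.75. Thrsp (0.48, p = 0.0655) and Dgat2 (0.10, p = 0.758), which acts in triglyceride synthesis, did not pass that threshold in edgeR.

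Among 18 genes that PPAR factors raise in response to fatty acids, the median slope was 0.18 (0.14 without the length trend, 0.29 without wildtype replicate 3, 0.07 without cage 678, and -0.01 with the replicate number in place of cage), with 3 genes higher and 1 lower at an unadjusted p-value under 0.05, where 4.74% and 12.3% of all genes were. The 3 were Hadhb, a subunit of the mitochondrial beta-oxidation complex (0.74, SE 0.28), the fatty acid binding protein Fabp3 (0.67, SE 0.31) and the lipid droplet protein Plin2 (0.47). Fabp3 was 383 to 645 CPM in the lightest and 737 to 987 CPM in the heaviest mice, without overlap. The lower gene was Ucp3, a mitochondrial carrier that fasting and fatty acids raise, at 284 to 326 CPM in the lightest and 192 to 303 CPM in the heaviest mice (-0.63, SE 0.23). Pdk4, the kinase that turns off pyruvate dehydrogenase, was 1740 to 2120 against 1650 to 2730 CPM (-0.11, SE 0.26), and the fatty acid transporter Cd36 was 524 to 785 against 730 to 943 CPM (0.49, SE 0.24, p = 0.0595). Angptl4 had a slope of 0.74 (SE 0.51) and Cpt1a one of -0.85 (SE 0.41, p = 0.0528).

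Nuclear genes for the respiratory chain had small, mostly positive slopes in the 16 mice and mostly negative slopes in the 6 wildtype mice alone. Of 79 OXPHOS subunits, 68 had a positive slope with a median of 0.38, but 2 were higher and 2 lower at an unadjusted p-value under 0.05, where 4.74% and 12.3% of all genes were. In the 6 wildtype mice 6 of the 79 slopes were positive. Their median was -0.16, beside 0.01 over all genes and -0.10 over the shortest quintile of gene length. A wildtype fit with the length trend removed was not run. With the length trend removed the median in the 16 mice was 0.16, and with the replicate number in place of cage it was -0.22. Without heterozygous replicate 3 the median was 0.84 and 42 subunits were called higher and 1 lower, in a fit that called 8.38% of all genes higher and 13.6% lower. Without replicate 7 the median was 0.14, and without cage 678 it was -0.03. Ndufc2 of complex I was 112 to 231 CPM in the lightest and 209 to 327 CPM in the heaviest mice (0.74, SE 0.34), and Atp5j had a slope of 0.65 (SE 0.30). Sdha, the large catalytic subunit of complex II, went the other way, with 579 to 1370 CPM in the lightest and 378 to 611 CPM in the heaviest mice (-1.04, SE 0.31), and Atp5a1 had a slope of -0.51 (SE 0.20). Mitochondrial ribosomal proteins (77 genes, median 0.23, and 0.22 with the length trend removed) and cytosolic ribosomal proteins (77 genes, median 0.33, and 0.18 with it removed) had 65 and 69 positive slopes, with 3 higher and 2 lower, and 3 higher and 0 lower, at an unadjusted p-value under 0.05. Mrps22 (0.77) and Mrpl47 (0.62) led the former, and Mrps18b (-0.44) and Mrps27 (-0.45) had negative slopes. In the wildtype mice alone 10 of the mitochondrial and 13 of the cytosolic ribosomal slopes were positive. Their medians were -0.14 and -0.11, beside the same 0.01 and -0.10. Proteasome subunits had a median of 0.34 over 37 genes (0.25 with the length trend removed), and 4 of these slopes were positive in the wildtype mice. Without heterozygous replicate 3 the mitochondrial ribosomal, cytosolic ribosomal and proteasome medians were 0.64, 0.79 and 0.69, with 29, 32 and 17 genes called higher and 0 lower, beside the same 8.38% and 13.6% of all genes. Without replicate 7 they were 0.06, 0.09 and 0.135, without cage 678 they were -0.02, -0.01 and 0.08, and with the replicate number in place of cage they were -0.16, -0.16 and -0.11. The mitochondrial ribosomal median was 0.38 without wildtype replicate 4, and the cytosolic one 0.21 without heterozygous replicate 9. These 4 families are short, with median lengths of 1675, 2533, 1781 and 2820 bases, beside 4197 bases over all genes.

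The TCA cycle list held 0 higher and 4 lower genes of 16, Ogdh (-1.54, SE 0.44), Sdha, citrate synthase Cs (-0.96) and Idh3a (-0.56), where 12.3% of all genes were lower. The median was -0.11, and -0.00064 with 3 lower genes once the length trend was removed. It was -0.17, -0.07, -0.03 and -0.05 without heterozygous replicates 2, 3, 9 and 10, and -0.05 without wildtype replicate 3. Ogdh, the first subunit of the 2-oxoglutarate dehydrogenase complex, was 680 to 1510 CPM in the 4 lightest and 231 to 510 CPM in the 4 heaviest mice, without overlap. Pdhb (0.50) and Suclg1 (0.36) had positive slopes that did not pass the unadjusted threshold. Among 11 regulators of mitochondrial biogenesis, 0 were higher and 4 lower, Ppara (-1.38, SE 0.50), Ppargc1b (-1.31, SE 0.50), Ppard (-0.74) and the mitochondrial RNA polymerase Polrmt (-0.88). The median was -0.28, and -0.07 with the length trend removed. It was -0.08 and -0.12 without heterozygous replicates 7 and 10, and -0.14, -0.45 and -0.16 without wildtype replicates 1, 3 and 5. Ppargc1a, the coactivator that endurance exercise raises, had 56.7 to 98.4 CPM in the lightest and 27.5 to 64.1 CPM in the heaviest mice and a slope of -0.29 (SE 0.34, p = 0.407). The positive slopes of Esrra (0.31) and Tfam (0.09) had standard errors of 0.30 and 0.17. Oxa1l, which inserts proteins into the inner mitochondrial membrane, had a slope of -0.16 (SE 0.17).

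Fast-fiber genes had the most negative median of the fiber lists, -0.52 over 12 genes, with 0 higher and 5 lower at an unadjusted p-value under 0.05, where 12.3% of all genes were lower. Once the length trend was removed the median was -0.73 with 7 lower genes, where 10.3% of all genes were lower. With the replicate number in place of cage the median was -0.15. Myh4, the myosin heavy chain of type IIB fibers, was 10900 to 58800 CPM in the lightest and 4960 to 12800 CPM in the heaviest mice, with a slope of -2.08 (SE 0.58). Myh1, of type IIX fibers, was 1780 to 11400 CPM against 720 to 1550 CPM, without overlap (-2.29, SE 0.63). Myh2 of type IIA fibers (-2.39), the calcium pump Atp2a1 (-1.19) and calsequestrin Casq1 (-0.58) were the other 3. Of the 12 slopes 4 were positive, among them those of parvalbumin, Pvalb (0.57, p = 0.131), and the light chain Mylpf (0.43, p = 0.183). The troponin genes Tnnt3 (-0.58, p = 0.0510) and Tnnc2 (-0.46, p = 0.0776) had negative slopes, which were -0.75 (p = 0.0106) and -0.74 (p = 0.0071) in edgeR with the length trend removed. Slow-fiber genes had 0 higher and 1 lower of 11, with a median of -0.20 (-0.30 with the length trend removed). The sign of this median turned, to 0.07 and 0.27 without wildtype replicates 3 and 4 and to 0.38 without cage 678, and it ran down to -0.40 without heterozygous replicate 7. That gene, Atp2a2, had no overlap between the lightest and the heaviest mice (-1.16, SE 0.44). The slow myosin Myh7 was near 0 in most mice, with a median of 0.404 CPM. Its highest values were 28.6 CPM in the heterozygous mouse of 46.2 g and 6.64 CPM in that of 36.5 g, and its slope of -3.58 had an SE of 1.78. Myl3 (0.59) and Myoz2 (0.44) had positive slopes with p = 0.0547 and p = 0.159 in edgeR.

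In 17 genes of atrophy and growth, 2 were higher and 4 lower at an unadjusted p-value under 0.05, where 4.74% and 12.3% of all genes were. The median was -0.11, and -0.12 with 1 higher and 3 lower genes once the length trend was removed. It was -0.23 without heterozygous replicate 7, and -0.19 and -0.04 without wildtype replicates 3 and 4. The 4 were the muscle ubiquitin ligases Fbxo32 (-1.03, SE 0.29) and Trim63 (-0.78, SE 0.26), which mark fiber proteins for degradation, and the factors Foxo1 (-1.27) and Foxo3 (-1.12) that drive them. The 2 were the growth factor Igf1 (0.73, SE 0.27) and the growth inhibitor Mstn, myostatin (0.55, SE 0.26). Fbxo32 was 380 to 601 CPM in the 4 lightest and 191 to 298 CPM in the 4 heaviest mice, and Mstn was 29.3 to 35.8 against 36.2 to 51.1 CPM, neither with overlap.

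Clock genes had 0 higher and 7 lower of 18 at an unadjusted p-value under 0.05, where 12.3% of all genes were lower. The median was -0.37 (-0.19 with 6 lower genes once the length trend was removed), and -0.66 and -0.23 without heterozygous replicates 3 and 9. With the replicate number in place of cage it was -0.08. Nr1d1, which encodes the repressor REV-ERB alpha, lies on chromosome 11 from 98767932 to 98775333 and was 80.4 to 247 CPM in the 4 lightest and 37.6 to 52.5 CPM in the 4 heaviest mice, without overlap (-1.49, SE 0.41). The others were Nfil3 (-0.68, but 0.36 with cage dropped), Arntl (-0.63), Bhlhe40 (-0.89), Hlf (-0.66), Cry2 (-0.87) and Per1 (-1.08). They peak at different hours of the day in tissues that keep time. Nr1d1 and Arntl, which REV-ERB alpha represses, had slopes of the same sign. Clock (0.21) and Tef (0.08) had positive slopes with p = 0.415 and p = 0.602 in edgeR. The labels give no hour of collection.

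**Figure D5:**
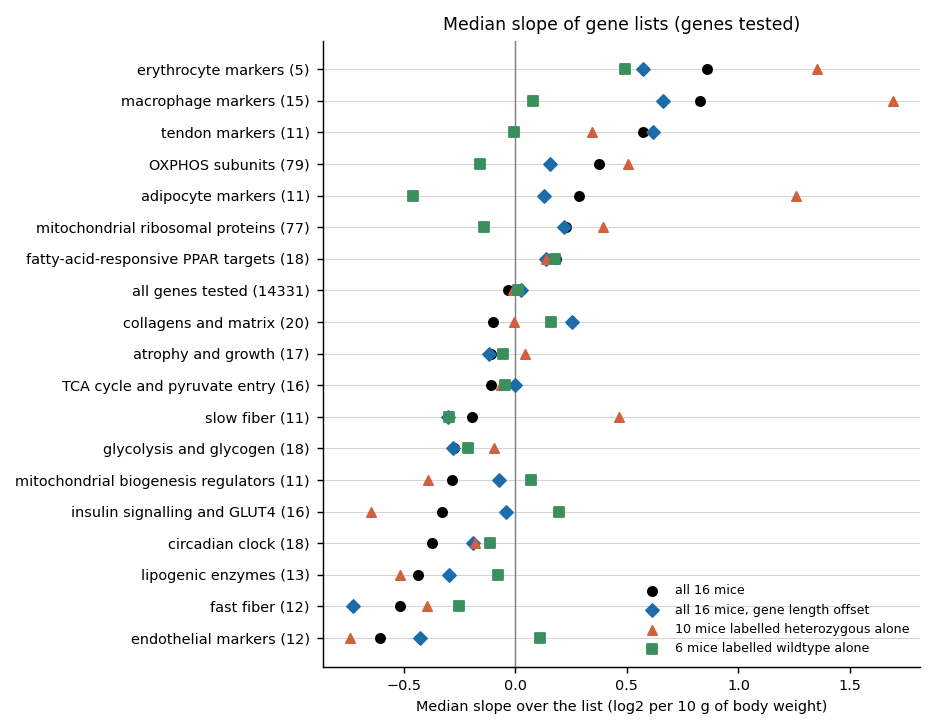
Median slope on body weight (log2 per 10 g, horizontal axis) of each gene list, with the number of genes tested in brackets; black circles are the fit of all 16 mice, blue diamonds that fit with the gene length trend removed, orange triangles the 10 heterozygous mice and green squares the 6 wildtype mice alone. Macrophage and erythrocyte markers have the highest medians of the 18 lists plotted in the 16 mice (0.83 and 0.86) and endothelial markers the lowest (-0.61). The wildtype medians lie nearer to 0 for macrophage, erythrocyte and endothelial markers alike. The wildtype fit has no cage term, unlike the other fits shown.

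Markers of macrophages, which lie between the fibers, had mostly positive slopes. Of 16 macrophage markers 15 were tested, 14 had a positive slope, and 7 had an unadjusted p-value under 0.05, none of them lower, where 4.74% of all genes were higher. The median was 0.83, and 0.66 with 9 higher genes once the length trend was removed. C1qa, a subunit of the complement component C1q that resident macrophages make, was 6.28 to 17.5 CPM in the 4 lightest and 15.1 to 25.7 CPM in the 4 heaviest mice (0.92, SE 0.37). The values of 6.28, 7.26 and 10.4 CPM in the 3 lightest mice were the lowest of the 16, and the highest, 30.9 CPM, was in a heterozygous mouse of 43.6 g. Ccr2, the receptor by which monocytes enter inflamed tissue, had a slope of 1.13 (SE 0.44), Itgam one of 1.57, Lyz2 one of 0.88, and Adgre1, which encodes F4/80, one of 0.90 (SE 0.41). Cd163 was the exception, with a slope of -0.09 (SE 0.29). The summed level of the markers was 67.1 to 174 CPM in the lightest and 133 to 207 CPM in the heaviest mice, within 67.1 to 263 CPM over all mice. Without heterozygous replicate 7 the list's median was 0.51, and over the fits that left out 1 mouse it ran from 0.51 to 1.12. In the 6 wildtype mice it was 0.08.

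Markers of B cells and MHC class II had a median of 0.69 over 7 genes (0.53 with the length trend removed, and -0.03 without cage 678), 1 of them with an unadjusted p-value under 0.05 (H2-Aa, 1.02), where 4.74% of all genes were higher. For T and NK cells and for neutrophils 1 marker each passed the filter on low counts, Cd3e (1.01, SE 0.35) and S100a9 (2.65, SE 0.76). Erythrocyte markers all had positive slopes, with a median of 0.86 over 5 genes (0.57 with the length trend removed, 0.46 and 0.52 without heterozygous replicates 7 and 9, and 0.37 without cage 678), and Hbb-bt (1.26, SE 0.40) and the erythroid heme enzyme Alas2 (0.99, SE 0.33) passed the unadjusted threshold, beside the same 4.74%. Their summed level was 88.0 to 241 CPM in the lightest and 200 to 416 CPM in the heaviest mice. The globin genes are near-identical copies, so their counts may be split among them. The part of retained blood in the slopes of leukocyte genes was not tested.

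Of 11 adipocyte markers tested, 6 had a positive slope, with 1 higher and 1 lower at an unadjusted p-value under 0.05, beside 4.74% and 12.3% of all genes, and a median of 0.29 (0.13 with the length trend removed). Adipoq, the adipocyte hormone adiponectin, was 8.33 to 85.0 CPM in the 4 lightest and 30.4 to 147 CPM in the 4 heaviest mice, with a slope of 1.35 (SE 0.65, p = 0.0559). Lep, leptin, which adipocytes release as they fill, was 1.13 to 29.6 against 18 to 55.6 CPM, with a slope of 1.48 (SE 0.87, p = 0.109). In the light mice the high value of both was that of the wildtype mouse of 40.5 g, and the lowest was that of heterozygous replicate 3. Over the fits that left out 1 mouse, the slope of Lep ran from 0.52, without that replicate, to 2.52. That of Adipoq ran from 0.90, without the same replicate, to 2.45. Fabp4 had a slope of 0.67 (SE 0.31). Plin4, a droplet protein that muscle fibers also make, was 173 to 355 against 118 to 156 CPM, without overlap (-1.01, SE 0.35). Plin1, which coats the droplets of adipocytes, had a slope of -0.39 (SE 0.81) and hormone-sensitive lipase Lipe one of -0.86 (SE 0.43). The median changed sign to -0.44 without heterozygous replicate 3. It was 1.28 without wildtype replicate 4, 0.53 to 0.63 without heterozygous replicate 4, 6 or 9, and 0.06 to 0.17 without heterozygous replicate 1 or 10 or wildtype replicate 5. Without cages 675, 676 and 678 it was -0.34, -0.07 and 1.78, and with the replicate number in place of cage 0.05.

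In the list of collagens and matrix genes, 5 of 20 were higher and 2 lower at an unadjusted p-value under 0.05, and 7 higher and 1 lower with the length trend removed. The 5 higher genes are a larger share than the 4.74% of all genes, and the 2 lower a smaller share than the 12.3%. The median was -0.10, and 0.25 after that correction. Without heterozygous replicate 7 it was 0.08 and without replicate 3 -0.23, and it moved nearer to 0 by over 1.5 times without heterozygous replicate 2, 4 or 9 or wildtype replicate 1 or 4. Without cages 677 and 678 it was 0.01 and 0.19, and with the replicate number in place of cage 0.43. Col5a2, a fibrillar collagen chain, was 29.6 to 37.9 CPM in the 4 lightest and 40.6 to 69.2 CPM in the 4 heaviest mice, without overlap (0.99, SE 0.28), and the collagen cross-linking enzyme Lox had a slope of 0.78 (SE 0.25). Lum (1.32), Dcn (0.75) and Timp1 (1.39) were the other 3. The basement membrane chains Col4a1 (-0.77) and Col4a2 (-1.15), which share a promoter region, were the 2 lower genes. Col1a1, a chain of the main fibrillar collagen, had a slope of -0.08 (SE 0.21), and of 0.17 with the length trend removed. Of 11 tendon markers, Kera and Tnmd (0.86, SE 0.30) were higher and 0 lower, with a median of 0.57 (0.62 with the length trend removed, and 0.26 without wildtype replicate 4), whereas Comp (-0.69) and Chad (-0.48) had negative slopes with p = 0.252 and p = 0.510 in edgeR. The summed tendon markers were 236 to 400 CPM in the lightest and 309 to 471 CPM in the heaviest mice, and the part of tendon carried along at dissection in the matrix slopes was not tested.

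Endothelial markers had a median of -0.61 over 12 genes (-0.43 without the length trend), with 0 higher and 4 lower at an unadjusted p-value under 0.05, where 12.3% of all genes were lower. Flt1 (-1.45, SE 0.48) and Kdr (-1.27, SE 0.49) encode the VEGF receptors of vessel lining, and Robo4 (-0.93) and Cdh5 (-0.88) were the other 2. The slopes of Flt1 and Kdr without heterozygous replicate 7 were -0.75 (p = 0.104) and -0.40 (p = 0.343) in edgeR. Flt1 was 132 CPM in the mouse of 36.5 g and 118 CPM in that of 46.2 g, against 20.4 to 30.9 CPM in the 4 heaviest mice and 27.2 CPM in the wildtype mouse of 40.5 g. Without heterozygous replicate 7 the list's median was -0.28, without replicate 3 -0.97, without cage 678 -0.08, with the replicate number in place of cage -0.07, and without the 2 mice farthest from the median weight -0.04. Egfl7 (0.54, p = 0.0542) and Emcn (0.34, p = 0.148), which the same cells express, had positive slopes. Smooth muscle and pericyte markers had a median of -0.57 over 9 genes (-0.24 with the length trend removed) with 3 lower, led by Notch3 (-1.57). Their median was -1.04 and -0.10 without heterozygous replicates 3 and 7, -0.01 without cage 678, and 0.11 without the 2 mice farthest from the median weight.

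In the 10 heterozygous mice alone, fitted on weight and cage, weight ran from 36.5 to 48.1 g. Cage took up 47.7% of the variance of weight, and 5 residual degrees of freedom were left. Cage 677 holds 1 of these mice, replicate 5 (39.4 g). Its cage term fits it, so it adds nothing to slopes fitted with cage. edgeR called 0 genes, and 166 (1.16%) had a positive and 403 (2.81%) a negative slope at an unadjusted p-value under 0.05. DESeq2 called 1 gene, Hipk2, a kinase that acts on transcription factors in stress responses, and edgeR without cage called the same gene alone (slope -3.01, adjusted p = 0.0457). limma-voom called 0. Hipk2, on chromosome 6 from 38694390 to 38876165, was 125, 63.7 and 33.8 CPM in the heterozygous mice of 36.5, 39.4 and 40.1 g and 6.31 to 26.8 CPM in the 7 heavier ones, so these do not overlap. In the 6 wildtype mice it was 5.39 to 13.6 CPM. Its slope with cage was -3.17 (SE 0.56, adjusted p = 0.877 by edgeR). Cage 675 holds only 2 heterozygous mice, replicates 3 and 6. Without replicate 3 or without replicate 6, edgeR called 9 genes higher and 674 or 676 lower. The cage term then fits the mouse that is left, so both fits take their slope from the same other mice.

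Of the genes that ranked next by p-value in these 10 mice, 1700047G03Rik had a slope of 13.8, which rests on 2 libraries at 0 counts and is no measure of size, and Slc5a7, the choline transporter of motor nerve endings, had 6.9 from values of 0.0455 to 4.98 CPM. The acute-phase gene Orm1 (3.91) and Lgals3, galectin-3 of activated macrophages (1.84), were the other 2 higher genes. The lower genes besides Hipk2 were the zinc transporter Slc39a8 (-2.54), Gm37829 (-1.89, from 26.7 to 131 CPM) and Gm43305 (-3.07).

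Medians of the marker lists lay farther from 0 in these 10 mice than in all 16 for macrophages, adipocytes, erythrocytes and endothelial cells, and nearer to 0 for tendon (0.34), smooth muscle and pericytes (-0.41) and the neutrophil marker (1.90). For macrophages the median was 1.69, with 14 of 15 slopes positive and 7 higher and 0 lower at an unadjusted p-value under 0.05, where 1.16% of all genes were higher. For adipocytes it was 1.26, with 3 higher and 0 lower, among them Adipoq (2.87) and Lep (3.19). For erythrocytes it was 1.35 and for endothelial cells -0.74. OXPHOS subunits had a median of 0.50 with 0 higher and 1 lower, and glycolysis and glycogen -0.10 with 0 higher and 1 lower. Insulin signalling had a median of -0.65 with 0 higher and 2 lower, and the clock -0.18 with 0 higher and 1 lower. In this fit 2.81% of all genes were lower.

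The 6 wildtype mice alone, fitted on weight without cage, spanned 40.5 to 54 g. Here 1 gene was called, Hist1h2al, a histone gene that was at 0 counts in 4 of the 16 libraries. Among the wildtype libraries it had 46 counts in replicate 3, 1 in replicate 5 and 0 in the others, so its slope of 11.01 is again no measure of size. At an unadjusted p-value under 0.05, 347 genes were higher and 238 lower. The median of the macrophage list was 0.08, of the adipocyte list -0.46, of the fast-fiber list -0.25, of the endothelial list 0.11, of OXPHOS subunits -0.16 and of insulin signalling 0.20, beside 0.01 over all genes. The adipocyte, endothelial, OXPHOS and insulin signalling medians had the opposite sign to those of all 16 mice, where cage was a covariate. The slope of Nos1 was -0.35, that of Hk2 -0.29 and that of Nr1d1 -0.84.

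The difference of slope between the genotype labels, heterozygous minus wildtype, was tested by an interaction term. edgeR called 0 genes, and 488 (3.41%) had an unadjusted p-value under 0.05. limma-voom called 0 and DESeq2 called Lgals3 and Alpk1. Lgals3 had a slope of 1.84 in the heterozygous and -1 in the wildtype mice, a difference of 2.54 (SE 0.48, adjusted p = 0.925 by edgeR). The kinase gene Alpk1 had slopes of -0.92 and 2.38, a difference of -3.62 (SE 0.73), and Hist1h2al had the third smallest p-value. The medians of the marker lists in the heterozygous mice were not shown to differ from those in the wildtype mice. C1qa had a difference of slope of 1.02 (SE 0.64, p = 0.135), Lep one of 2.46 (SE 1.06, p = 0.0349), Nos1 one of -1.46 (SE 0.85, p = 0.109) and Hk2 one of -0.96 (SE 0.64, p = 0.156) in edgeR, each with an adjusted p-value of 0.925.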

How the data were processed

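The 16 columns are raw gene counts, which the authors deposited without normalization after mapping paired reads to GRCm38 with STAR 2.7.2b and counting fragments on GENCODE M24 with featureCounts 1.6.4 (versions from the submitters' processing notes, whereas the methods give another featureCounts release). The labels name a Tecan Universal Plus mRNA kit, whereas the study's methods name TruSeq Stranded mRNA. No per-sample column was left unused.

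Of 55471 identifiers, 55144 were paired with a symbol from a GENCODE M21 table. Coordinates and gene lengths are those of the deposited table. Genes passing filterByExpr by genotype label (14331) were scaled with TMM and tested in R 4.3.3 with edgeR 4.0.16 (glmQLFit, robust = TRUE, legacy = TRUE, glmQLFTest) on body weight, genotype label and cage. This is the study's model, read for its weight term. Slopes are log2 per 10 g, and the SE is the slope divided by the square root of F. P-values were adjusted by Benjamini-Hochberg with a threshold of 0.05. They measure the spread between mice of this set. Library totals of 15273472 to 59682677 set the floor of 3 counts at 0.196 to 0.0503 CPM, which covers counting error only. The length correction removed a natural spline (4 df) of log2 length from each library by an offset. Relations of weight with library measures used 100000 permutations. The steps were tested on simulated data. Of 50 genes given a slope of 1 and 50 given -1, the 16-mouse fit called 15 and 10. The heterozygous fit called 0 and 1 of such genes. At slopes of 2 and -2 the 16-mouse fit called 41 and 45 of 50, and the heterozygous fit 20 and 24. A count of 0 therefore does not exclude slopes near 1. Alternatives used DESeq2 1.42.0, limma 3.58.1 and sva 3.50.0, other covariates, scalings and filters, and leaving out mice or cages. The GC offsets, the length offset in the heterozygous fit, with the replicate block and with each mouse left out, the relations within the heterozygous mice, and the display of the 4 lightest and heaviest mice, were added after seeing the data.

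Body weight, the gene lists and the rule for named genes were chosen with earlier results of these data known. Named genes are the 12 positive and 12 negative slopes with the smallest p-values, 4 of each in the heterozygous mice alone, 3 for the difference of slope, 16 anchor genes, and up to 2 members of each described list in each direction. Other members counted under the unadjusted threshold, genes called by DESeq2, and Tnnt3 and Tnnc2, were named after their values were seen. The same replicate numbers occur under both labels but belong to different mice. The result of 1 further gene list is not reported here.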

Additional observations from a re-analysis of the deposited data

Results flagged for a closer look

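Each named gene was examined within each genotype label for a single mouse far from the rest on the log2 scale, by Dixon's test. Of 220 such groups 20 were flagged, where chance flags about 1 in 20 groups. The library of wildtype replicate 1 (48.1 g, cage 677) stood apart most often among the 6 wildtype mice. It was the lowest for Wipf3 (2.71 CPM), Zfp423 (2.88 CPM), Ahdc1 (3.27 CPM), Myh4 (4960 CPM), Myh1 (720 CPM), Acacb (59.1 CPM), Sdha (425 CPM), Atp2a2 (10.8 CPM) and Ogdh (231 CPM). It was the highest for Tpi1 (7000 CPM), Ndufc2 (327 CPM), Atp5j (968 CPM) and Mrps22 (50.1 CPM). Without this mouse, 480 genes had a positive and 1020 a negative slope at an unadjusted p-value under 0.05.

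Hist1h2al was highest among the wildtype mice in replicate 3 (1.65 CPM) and Myh7 in replicate 4 (2.58 CPM). Among the 10 heterozygous mice, Lep was lowest in replicate 3 (1.13 CPM), Cd163 was lowest in replicate 2 (3.64 CPM), and Mrps18b was lowest in replicate 9 (14.1 CPM). Egfl7 was highest in replicate 9 (169 CPM) and Mstn in replicate 8 (78.5 CPM).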

How the results depend on the processing

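In all 16 mice, 0 genes were called in either direction by edgeR, also with cage dropped, with weight alone, and with other size factors, filters, ranks of weight or added covariates. Dropping the genotype label gave 16 higher and 317 lower genes, and DESeq2 gave 1 and 25. An unadjusted p-value under 0.05 gave 680 and 1769, and an adjusted p-value under 0.1 gave 0. Over the fits that left out 1 mouse, with or without the length trend, or 1 cage, the counts ran from 0 to 1518 higher and from 0 to 1954 lower. All calls came from fits without heterozygous replicate 3 or without its cage 675, 1201 and 1954, 1518 and 1427 with the length trend removed, and 743 and 1516 without the cage; the cause was not tested. In the heterozygous mice alone, an unadjusted threshold gave 166 higher and 403 lower genes, DESeq2, cage dropped, and cage dropped with the length trend removed each gave 1 lower gene, and leaving out 1 mouse gave 0 to 9 higher and 0 to 676 lower. In the wildtype mice the unadjusted counts were 347 and 238, and a fit with cage, which would leave 1 residual degree of freedom, and fits that leave out a wildtype mouse were not run. For the difference of slope they were 193 and 295, DESeq2 called 1 and 1, and leaving out 1 mouse gave 0 to 5 and 0 to 300, the calls coming without heterozygous replicate 6.

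The split at an unadjusted p-value under 0.05 was 680 higher and 1769 lower with TMM, 1501 and 956 with library size only, 959 and 1477 with the length trend removed, 909 and 1360 with length and GC trends removed, and 475 and 640 without the mice of 36.5 and 54 g. Several of the 41 gene lists kept the sign of their median in 56 of 56 alternatives. Among them were the macrophage, erythrocyte, tendon, endothelial, fast-fiber, clock, glycolysis, branched-chain amino acid, atrophy, interferon and fibro-adipogenic progenitor lists. The median of collagens and matrix kept its sign in 30, that of adipocyte markers in 50 and that of OXPHOS subunits in 53. Fits of 1 genotype label alone are not among the 56. In the wildtype mice alone the endothelial and tendon medians had the other sign (0.11 and -0.008). The slopes rest on 3.11 g of weight left within label and cage and 10 residual degrees of freedom, which limit their precision.

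Of 6146 recomputed slopes of the 110 named genes, 202 had the opposite sign. With cage dropped it was 0.054 for Alpk1, 0.22 for Cd163, 0.29 for Chad, -0.019 for Tef and 0.36 for Nfil3. With log2 library size added it was 0.27 for Alpk1. With 1 surrogate variable added it was 0.52 for Alpk1. With RLE size factors it was 0.0198 for Alpk1 and 0.011 for Slc2a4. With library size only it was 0.056 for Alpk1, 0.054 for Slc2a4 and 0.0034 for Col1a1. By DESeq2 it was 0.076 for Alpk1 and 0.011 for Slc2a4. By limma-voom it was 0.16 for Alpk1 and 0.0295 for Chad. With the length trend removed it was 0.28 for Alpk1, 0.17 for Col1a1 and 0.0903 for Cd163. With the GC trend removed it was 0.068 for Alpk1, 0.041 for Pdk4, 0.15 for Slc2a4, 0.11 for Col1a1, 0.0079 for Oxa1l and -0.011 for Tfam. With both trends removed it was 0.29 for Alpk1, 0.12 for Slc2a4, 0.35 for Col1a1, 0.059 for Oxa1l, 0.0064 for Npr1 and -0.074 for Tfam. Without the mice of 36.5 and 54 g it was 0.31 for Alpk1, -0.55 for Hist1h2al, 0.20 for Pdk4, 0.18 for Slc2a4, 0.26 for Col1a1, 0.025 for Oxa1l, 0.036 for Npr1, 0.22 for Comp, 0.73 for Chad, -0.0795 for Clock and -0.00996 for Tfam. With the label dropped it was -0.85 for Hist1h2al and 0.048 for Slc2a4. With the rank of weight it was 0.0025 for Pdk4 and 0.0037 for Slc2a4. With weight alone it was 0.0063 for Cd163, -0.024 for Tef and 0.30 for Nfil3. Over the fits that left out a mouse or a cage, slopes that changed sign ran from -0.15 to 1.16 for Lgals3, -0.91 to 1.09 for Alpk1, -0.57 to 3.25 for Hist1h2al, -1.25 to 1.70 for Plin1, -0.21 to 0.23 for Pdk4, -0.12 to 0.29 for Slc2a4, -5.43 to 4.88 for Myh7, -0.20 to 0.30 for Col1a1, -0.68 to 0.26 for Ppargc1a, -0.22 to 0.041 for Oxa1l, -0.26 to 0.22 for Cd163, -1.61 to 0.045 for Comp, -1.75 to 0.18 for Chad, -0.26 to 0.57 for Dgat2, -0.023 to 1.10 for Clock, -0.012 to 0.62 for Tef and -0.022 to 0.42 for Tfam.

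Replicate numbers do not pair these mice. The deviations of same-numbered mice correlated at 0.0779 on average (lowest 0.0328, 6 pairs), and 0 wildtype libraries correlated best with their own number. In a replicate block, heterozygous replicates 7, 8, 9 and 10 each have their own term and add nothing to the slope. With a replicate block in place of cage, 4 residual degrees of freedom were left and edgeR called 1 gene higher (Ubd) and 0 lower. With the length trend also removed it called 3 and 0. Under this block the slope had the opposite sign, at -0.22 for Lgals3, 0.51 for Gm43305, 1.70 for Alpk1, 0.11 for Plin1, -0.20 for Angptl4, 0.23 for Npr1, 0.51 for Cd163, -0.074 for Egfl7, 0.078 for Col4a2, 0.16 for Col4a1, 0.65 for Comp, 1.29 for Chad, -0.16 for Tpi1, -0.28 for Gapdh, 0.046 for Gsk3b, -0.026 for Ndufc2, -0.021 for Atp5j, -0.044 for Pvalb, -0.032 for Mylpf, -0.0042 for Myl3, -0.057 for Myoz2, 0.13 for Atp2a2, -0.15 for Pdhb, -0.12 for Suclg1, -0.23 for Esrra, -0.049 for Tfam and 0.22 for Ppargc1b. With the replicate block and the length trend removed it was -0.21 for Lgals3, 0.45 for Gm43305, 1.65 for Alpk1, 0.066 for Plin1, -0.22 for Angptl4, 0.21 for Npr1, 0.48 for Cd163, -0.091 for Egfl7, -0.019 for Emcn, 0.056 for Col4a2, 0.14 for Col4a1, 0.65 for Comp, 1.31 for Chad, -0.16 for Tpi1, -0.30 for Gapdh, 0.0202 for Gsk3b, -0.033 for Atp5j, -0.072 for Myoz2, 0.10 for Atp2a2, -0.17 for Pdhb, -0.14 for Suclg1, -0.25 for Esrra, -0.073 for Tfam and 0.20 for Ppargc1b.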

Other observations

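Further gene groups of the muscle were looked at in the fit of all 16 mice, and their members are named here after their values were seen. Of 15 genes that break down branched-chain amino acids, 0 had a positive and 4 a negative slope at an unadjusted p-value under 0.05, where 4.74% of all genes had a positive and 12.3% a negative one. The median was -0.29 log2 per 10 g (-0.21 with the length trend removed, and -0.19 and -0.15 without heterozygous replicate 3 and wildtype replicate 4). It was -0.02 without cage 675. The counts below stand beside the same shares of all genes. The 4 were Dbt (-0.81), the phosphatase Ppm1k that activates the branched-chain ketoacid dehydrogenase (-0.67), Ivd (-0.50) and Pccb (-0.37). In the natriuretic peptide and cGMP group, 8 of 8 tested genes had a negative slope, beside 7546 of 14331 over all genes. Furin (-0.80) and the receptor Npr2 (-0.81) were under the unadjusted threshold. The median was -0.28, and -0.01 with the length trend removed. It ran from -0.62 to -0.15 over the fits that left out 1 mouse. Without cage 678 it was -0.06, and with the replicate number in place of cage -0.08. In the wildtype mice alone 5 of the 8 slopes were positive, with a median of 0.08, beside 0.01 over all genes.

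Higher and lower below refer to the sign of slopes with an unadjusted p-value under 0.05, none of which passed after adjustment. Of 12 interferon-responsive genes, 10 had a positive slope, Ifit1 (1.01) and Ifit3 (0.53) were higher and Rsad2 (-0.77) was lower. Among 6 regeneration genes the embryonic myosin Myh3 (-2.54) and the satellite cell factor Pax7 (-1.04) were lower and Myf5 (0.70) was higher. The median was -0.78, and -0.76 with the length trend removed. It was -0.32 without heterozygous replicate 7 and 0.22 with the replicate number in place of cage. In the 6 wildtype mice it was 0.33, with 5 slopes positive. With the length trend removed 0 of the 6 genes were higher and 3 lower. Of 9 genes of denervation and the neuromuscular junction, Ncam1 (-1.30) and the acetylcholine receptor subunit Chrnd (-1.25) were lower. Their list had a median of -0.30, and -0.29 with the length trend removed. This median was -0.10 without heterozygous replicate 7, 0.06 without cage 678 and -0.05 with the replicate number in place of cage. In the heat shock group, the cochaperone Bag3 (-1.17), Hsph1 (-0.55) and Hspd1 (-0.52) were lower and 0 of 12 genes were higher. The lists for the unfolded protein response (13 genes) had 0 genes in either direction.

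The remaining lists are given by their counts, their median, the median with the length trend removed and the range of the median over the 16 fits that left out 1 mouse. Fatty acid uptake and lipoprotein genes had 2 higher and 1 lower of 12 (median 0.18, then 0.16, range 0.07 to 0.30). Fibro-adipogenic progenitor markers had 2 higher and 0 lower of 8 (median 0.37, then 0.18, range 0.12 without heterozygous replicate 3 to 0.61 without wildtype replicate 4). In the other lists 0 genes were higher. Of genes of muscle fiber identity 0 of 8 were lower (-0.27, then -0.07, range -0.32 to -0.07), and of glucocorticoid-responsive genes 1 of 10 (-0.28, then -0.27, range -0.36 to -0.05). The integrated stress response had 1 lower of 12 (-0.07, then -0.18, range -0.22 to 0.17), antioxidant genes 1 of 14 (0.02, then 0.02, range -0.09 to 0.22) and immediate early genes 2 of 16 (-0.18, then -0.31, range -0.39 to 0.03). Schwann cell markers had 1 lower of 9 (-0.15, then -0.18, range -0.28 to 0.01) and cardiac muscle markers 1 of 2 (-0.98, then -0.74, range -1.29 to -0.46).

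Slopes also ran with GC content. The median was 0.16 over the genes of lowest GC content, up to 45.3%, and -0.14 over those of highest, from 55.9%, and these were 0.27 and -0.14 with the length trend removed. In the heterozygous mice alone they were 0.08 and 0.04.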
